A study of Mus musculus with 8 samples.

Results

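The cells described here are CD4 T cells of the inflamed pancreas with RNA of genes that T cells are known to switch on soon after their receptor is triggered, chosen by 6 such genes in raw counts of unique molecular identifiers (UMIs, 1 per captured RNA molecule). A cell was taken when it had at least 500 detected genes, under 10% mitochondrial UMIs, at least 2 UMIs summed over the 6 genes Trac, Trbc1, Trbc2, Cd3d, Cd3e and Cd3g, at least 1 UMI of Cd4, none of Cd8a, Cd8b1 and Foxp3, and at least 1 UMI of at least 2 of Egr2, Egr3, Nfkbid, Tnfrsf9, Nr4a1 and Nr4a3. The rule found 2701 cells, called members here, among 28119 CD4 cells without Foxp3, or 9.61%, and among 80470 barcodes in all. The cells they were compared with were the 18474 CD4 cells with none of the 6 genes, called marker-free cells. The other 6944 CD4 cells had 1 of the 6 genes and entered neither group.

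T cells were sorted from the pancreas of mice of the NOD strain, which become diabetic through autoimmunity, as CD45+ CD3+ TCR-beta+ cells and measured in 8 single-cell 3′ libraries. All mice were labelled as diabetic females of 3 to 4 months, while the protocol gives an upper age of 5 months. The active library came from mice above 600 mg/dl blood glucose and the onset library from mice at 250 mg/dl, both harvested on day 1, which their treatment labels do not state. The vehicle and PPCA libraries came from mice at new onset (200 to 300 mg/dl), with 1 library of each on days 2, 3 and 4. PPCA is nutlin-3 at 50 mg/kg, an inhibitor of MDM2 that releases the tumour suppressor p53, together with MK-1775 at 25 mg/kg, an inhibitor of the cell cycle kinase WEE1. The vehicle was 30% ethanol, 5% Tween 20 and 65% PEG300. Days 2, 3 and 4 are those of the sample names, and how they match the number of daily doses is not stated. The number of mice behind a library is not stated either, so p-values measure only the spread between libraries, which may be technical.

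When a T cell receptor meets its peptide on an MHC molecule, calcium, MAP kinase and NF-κB signalling switch on a first wave of genes within the first hours. Egr2 and Egr3 encode zinc finger transcription factors that also restrain the response, Nr4a1 and Nr4a3 encode orphan nuclear receptors of the same wave, Nfkbid encodes a nuclear IκB protein and Tnfrsf9 encodes the costimulatory receptor 4-1BB. In the NOD pancreas such signals are known from T cells that recognise islet antigens on local presenting cells.

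Of the 6 genes, 5 had upstream sequence in the RefSeq table of mouse build GRCm38.p6 (32851 windows, cut here to the 250 bases before each annotated start). The following 4 windows are shown because they hold DNA elements of the signalling pathways that act on these genes. Capitals mark matches, on either strand, to the CArG box of serum response factor, to the core of the cAMP response element, here CRE core (TGACGT), or to the site of EGR proteins (GCGNGGGCG). Positions count backwards from −1, the last base before the start.
Egr2, chr10:67537619-67537868, plus strand: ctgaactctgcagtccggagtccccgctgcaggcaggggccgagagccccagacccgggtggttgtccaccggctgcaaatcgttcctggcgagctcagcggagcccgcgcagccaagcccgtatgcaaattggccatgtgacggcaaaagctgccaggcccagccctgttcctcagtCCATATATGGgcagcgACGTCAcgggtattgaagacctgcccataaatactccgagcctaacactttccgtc
Nr4a3, chr4:48045055-48045304, plus strand: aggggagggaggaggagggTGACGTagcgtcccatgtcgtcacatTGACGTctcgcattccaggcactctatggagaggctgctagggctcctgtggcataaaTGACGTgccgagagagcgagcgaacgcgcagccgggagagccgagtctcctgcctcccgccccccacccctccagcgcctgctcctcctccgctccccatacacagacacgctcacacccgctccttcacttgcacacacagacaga
Nfkbid, chr7:30422156-30422405, plus strand: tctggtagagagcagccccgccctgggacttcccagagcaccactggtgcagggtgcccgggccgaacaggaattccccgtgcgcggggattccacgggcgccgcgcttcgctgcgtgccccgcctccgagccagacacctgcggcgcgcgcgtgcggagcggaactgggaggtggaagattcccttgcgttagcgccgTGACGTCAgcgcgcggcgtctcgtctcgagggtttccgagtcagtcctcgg
Nr4a1, chr15:101266596-101266845, plus strand: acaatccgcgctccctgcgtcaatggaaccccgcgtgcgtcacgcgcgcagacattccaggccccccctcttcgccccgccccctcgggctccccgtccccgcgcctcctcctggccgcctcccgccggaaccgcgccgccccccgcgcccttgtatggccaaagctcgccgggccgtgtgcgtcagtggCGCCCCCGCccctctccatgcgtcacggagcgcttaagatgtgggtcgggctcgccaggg
The table has 5 windows for Egr2, of which 3 held both a CArG box and a CRE core, 1 a CArG box and 1 no match, and 3 windows for Nfkbid, of which 1 held a match. The 3 Egr2 windows with both elements overlap and hold the same CArG box and the same CRE core. The windows shown for these genes were picked because they held matches. The Egr2 window shown held a CArG box from −72 and a CRE core from −56. The window of Nr4a3 held 3 CRE cores, the farthest from −231. In the Nfkbid window shown, 2 overlapping matches from −51 formed the full palindrome of the element, and the window of Nr4a1 held an EGR site from −60. Neither window of Tnfrsf9 held any of these letters. Among all 32851 windows, 1.47% held a CArG box, 6.47% a CRE core and 4.70% an EGR site. A match is a description of the letters and not a measured binding site.

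The libraries held 36934580 to 67603740 UMIs over 7023 to 13129 barcodes, and 740 of 79727 distinct barcodes occurred in more than 1 library. Members had more UMIs than marker-free cells in all 8 libraries (medians of 4431 to 6965 against 3696.5 to 6148), and the rule itself favours deeper cells, since a gene is easier to detect in them. Both day 4 libraries stood apart and held 1473 of the members, or 54.5%. Transcripts of sex chromosomes went against the labels: the 4 libraries active, onset, PPCA day 2 and vehicle day 4 carried Xist at 412 to 632 CPM (UMIs scaled to the same total in every sum of cells) in the members, while the libraries vehicle day 2, vehicle day 3, PPCA day 3 and PPCA day 4 had Xist at or below 1.55 CPM and summed Y-linked genes at 204 to 295 CPM. List counts are therefore also given without the day 4 libraries. Of the 87 genes followed through the alternatives of the comparison of members with marker-free cells, 86 kept their direction and call without them, and 1 was not tested there. For genes described in the text, the value without day 4 is printed where it moved by over 1.5 times. Genes described in the text that lost their call in a set of libraries with 1 sex-linked pattern are named in the closing section.

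Among CD4 cells without Foxp3, members made up 5.49% (157 of 2859) in the active library and 9.38% (468 of 4991) in the onset library. In the vehicle libraries they made up 6.20% (185 of 2986), 4.34% (154 of 3547) and 20.4% (993 of 4862) on days 2, 3 and 4. In the PPCA libraries the shares were 5.12% (160 of 3127), 4.00% (104 of 2603) and 15.3% (480 of 3144). Both day 4 shares lay above the other 6, whose exact 95% Clopper-Pearson intervals ended at 10.2% or lower, while those of day 4 began at 19.3% and 14.0%. These intervals cover counting error only. The separation was smaller under other rules. With Nr4a1 left out of the rule, the day 4 shares were 7.67% and 6.39% and that of the onset library 6.33%. With at least 3 of the 6 genes they were 5.27% and 3.18%, and the onset library had 3.19%. The interval of vehicle day 4 then began at 4.65%, above the 3.71% at which that of the onset library ended.

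Because deeper cells pass the rule more often, each cell was also thinned to 2000 UMIs before the rule was applied. The thinned shares were 2.58% in the active and 3.31% in the onset library, 2.61%, 1.17% and 5.64% in the vehicle libraries of days 2, 3 and 4, and 2.61%, 1.76% and 5.43% in the PPCA libraries. By this rule day 4 was highest in both arms. Without Nr4a1 the thinned day 4 shares were 1.92% (vehicle) and 2.27% (PPCA), beside 2.11% in the onset library and 2.01% in vehicle day 2. With at least 3 of the 6 genes they were 1.14% and 0.840%, beside 1.06% in the active library, so that day 4 no longer stood apart under either rule. The mean was 3.27% ± 1.92 (SD, n = 3) with PPCA and 3.14% ± 2.28 (SD, n = 3) with vehicle. The difference of 0.131 percentage points came from 0.00755 for day 2, 0.590 for day 3 and −0.205 for day 4. With 3 days, an exact two-sided sign-flip test returned p = 0.75 (smallest possible 0.25), and the exact two-sided permutation test between the arms returned p = 0.9 (smallest possible 0.1). The shares of the 2 arms overlapped, and the sign turned to −2.19 percentage points without thinning (exact sign-flip p = 0.25) and to −0.0986 without day 3.

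The higher share on day 4 was not limited to this gate. Among CD8 cells, those with 2 or more of the 6 genes made up 16.6% and 10.5% on day 4 with vehicle and PPCA, against 2.94% to 7.61% in the other 6 libraries. Thinned to 2000 UMIs, CD8 cells had 4.10% and 3.27% on day 4 against at most 1.78% elsewhere. Both day 4 libraries were thus also highest among CD8 cells, at either depth. Without Nr4a1 the CD8 shares of day 4 were 8.27% and 5.29% on raw UMIs, against at most 5.25% elsewhere, and 1.88% and 1.52% after thinning, against at most 1.39%. With at least 3 genes the CD8 shares on raw UMIs were 4.85% and 2.53% on day 4, against at most 1.84% elsewhere. The thinned CD8 shares were then 0.451% and 0.498% on day 4 and up to 0.660% elsewhere.

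**Figure D1:**
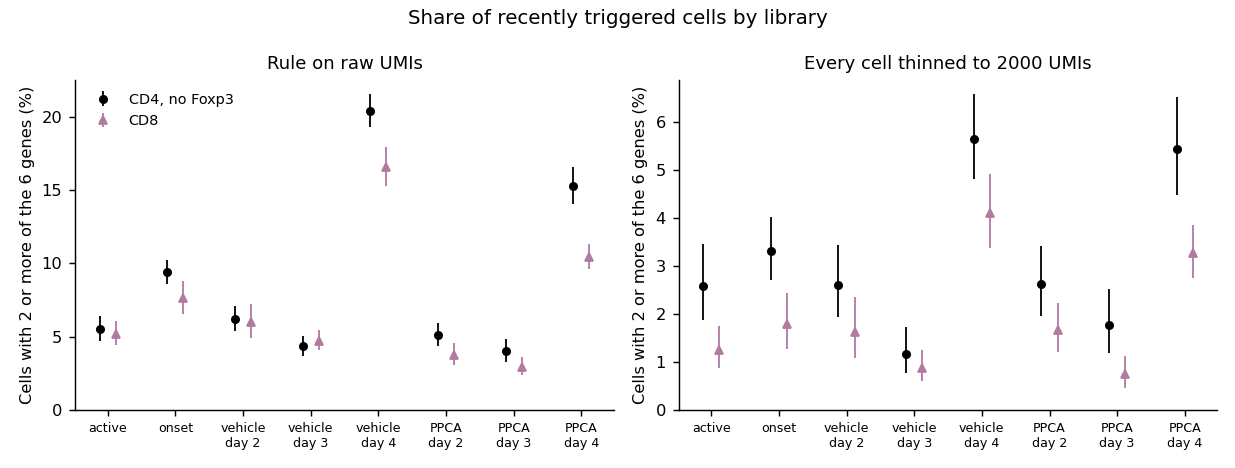
Share of cells with 2 or more of the 6 genes (y axis, percent) in each library (x axis), on raw UMIs (left) and with every cell thinned to 2000 UMIs (right), for CD4 cells without Foxp3 and CD8 cells. Bars are exact 95% Clopper-Pearson intervals for counting error, and both day 4 libraries lie highest in both panels for both kinds of cell.

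The 6 genes themselves chose the members, so their levels are a description. Most members passed the rule narrowly: 1904 (70.5%) had exactly 2 of the 6 genes, 493 had 3, 209 had 4, 87 had 5 and 8 had all 6, and 1021 had 2 genes with 1 UMI each. Nr4a1 was seen in 72.0% of the members, Nr4a3 in 55.1%, Nfkbid in 54.6%, Egr3 in 32.7%, Egr2 in 20.1% and Tnfrsf9 in 10.1%.

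The mixture of the 6 genes differed between day 4 and the other libraries. Egr2 or Egr3 was seen in 33.2% and 25.0% of the members of vehicle and PPCA day 4. In the other 6 libraries it was seen in 63.1% (active), 51.5% (onset), 59.5% and 61.0% (vehicle days 2 and 3) and 60.0% and 69.2% (PPCA days 2 and 3). Nr4a1 went the other way, with 86.1% and 76.7% on day 4 and 54.5% to 64.3% elsewhere. Among members with exactly 2 genes, the pair of Nr4a1 and Nr4a3 made up 421 of 1117 (37.7%) on day 4 and 106 of 787 (13.5%) elsewhere. The most frequent pair elsewhere was Nfkbid with Nr4a3, at 140 of 787 (17.8%). Egr2, Egr3 and Tnfrsf9 were seen in 13.0%, 21.2% and 5.91% of the members of day 4, against 28.7%, 46.4% and 15.2% in the other libraries. A share among members also falls when more cells pass through Nr4a1. Over all CD4 cells without Foxp3, members with Egr2 or Egr3 made up 6.79% in vehicle day 4 and 3.82% in PPCA day 4, against 2.65% to 4.83% in the other 6 libraries. The cells are called members throughout, after the rule.

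**Figure D2:**
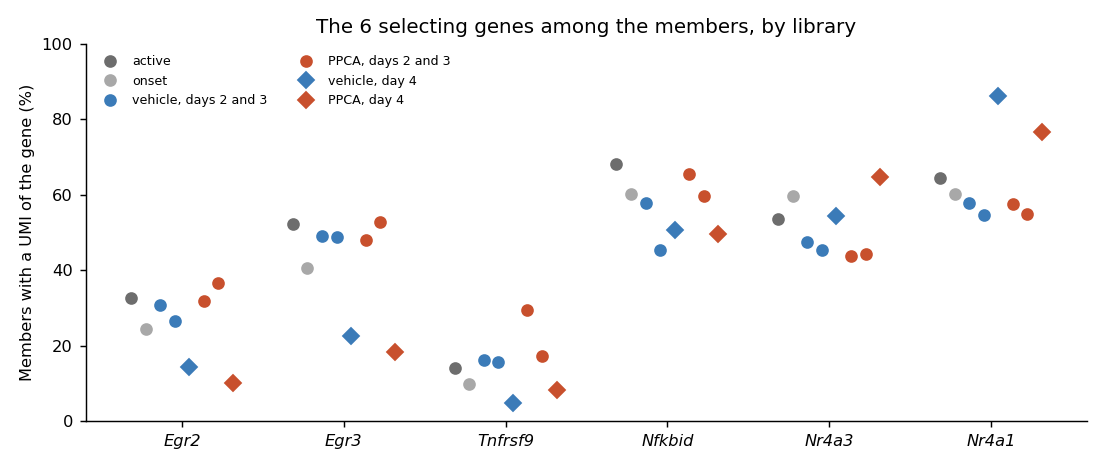
Share of the members with at least 1 UMI of each of the 6 selecting genes (y axis, percent; x axis, gene), 1 point per library. The day 4 libraries (diamonds) lie lowest for Egr2, Egr3 and Tnfrsf9 and highest for Nr4a1.

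To see the 6 genes in counts that had not chosen the cells, the UMIs of each cell were split at random into 2 parts, the rule was applied to one and the levels were read in the other. By this rule 959 cells were members and 15054 were marker-free. In the other part, Egr3 averaged 223 ± 127 CPM (SD, n = 8 libraries) in members and 5.78 ± 2.16 in marker-free cells, and Egr2 averaged 94.1 ± 56.3 and 2.82 ± 0.900. Nr4a1 averaged 287 ± 78.6 CPM in members against 30.4 ± 38.2 in marker-free cells, where the day 4 libraries lay at 97.7 and 85.9 and the other 6 averaged 10.0. On day 4 the members had 58.1 (vehicle) and 94.9 (PPCA) CPM of Egr3, below the 272 CPM that the other 6 averaged.

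Over all 8 libraries, UMIs were summed per library in members and in marker-free cells and compared with edgeR's quasi-likelihood test with the library as a block (10213 genes tested, Benjamini-Hochberg adjusted p under 0.05). Members had 1125 genes higher (11% of those tested) and 808 lower (7.91%), leaving out the 6 genes, the genes of the gate and mitochondrial genes. Without both day 4 libraries the counts were 1383 (13.4% of 10345 tested) and 1024 (9.9%). With members chosen on one random part of the UMIs and tested on the other they were 640 and 372. Leaving out the active library gave 538 lower genes, the fewest of any single library left out. The filter on low counts kept 22 of the 23 early transcription factors listed, 23 of 24 signal brakes, 16 of 19 checkpoint, 11 of 15 type 1 helper, 10 of 14 follicular helper, 7 of 14 regulatory, 15 of 17 glycolysis, 11 of 12 heat shock, 12 of 15 interferon, 16 of 20 p53 and 12 of 20 cell cycle genes, and counts are given over those kept. Levels of single genes are CPM scaled by edgeR's TMM factors. Where 8 values are listed, they stand in the order active, onset, vehicle days 2, 3 and 4 and PPCA days 2, 3 and 4.

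Transcription factors of the first wave were higher as a group. Of 22 genes of this list, 16 were higher and 1 was lower, with a median log2 fold change of 0.74 beside −0.02 over all genes tested (18 and 1 without day 4). Egr1, the immediate-early partner of Egr2 and Egr3, was at 459, 301, 372, 271, 298, 362, 385 and 344 CPM in members and at 57.7, 59.0, 109, 92.8, 148, 32.6, 72.9 and 221 CPM in marker-free cells. Every library was higher in members, and the 2 groups did not overlap, although the marker-free cells of day 4 were the highest of their group. The log2 fold change was 1.98 ± 0.22 (SE, adjusted p = 4.89e-06), and 2.41 without the day 4 libraries.

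Irf4, whose induction follows the strength of the receptor signal, was at 62.8, 24.2, 24.6, 33.6, 27.8, 63.9, 37.8 and 30.3 CPM in members against 1.96, 6.98, 1.78, 2.56, 16.2, 4.56, 3.18 and 8.19 in marker-free cells. The groups did not overlap (log2 fold change 2.73 ± 0.34, adjusted p = 1.84e-05, and 3.48 without the day 4 libraries). Irf8 averaged 26.1 ± 10.8 CPM (SD, n = 8) in members and 4.10 ± 1.06 in marker-free cells. Myc, which drives growth before division, averaged 95.5 ± 29.7 against 47.1 ± 6.60 CPM, and the NF-κB subunit gene Rel 181 ± 39.2 against 68.3 ± 34.4. All 3 were higher in 8 of 8 libraries and passed the test. Jun was the 1 gene of the list in the other direction, at a log2 fold change of −0.18. It lost the call when the active, onset, vehicle day 2 or PPCA day 3 library was left out (adjusted p = 0.139, 0.0611, 0.0550 and 0.0717).

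Feedback inhibitors were higher in most cases. The list of signal brakes covers MAP kinase, NF-κB, calcineurin, cytokine receptor and G protein signalling and mRNA decay. Of its 23 genes tested, 15 were higher and 2 were lower (median 0.69), with the same counts without day 4. Nfkbia, which encodes the IκBα that returns NF-κB to the cytoplasm, was at 471, 419, 548, 499, 763, 570, 596 and 1192 CPM in members and 154, 247, 189, 190, 636, 170, 162 and 859 in marker-free cells. It was higher in all 8 libraries, but the marker-free cells of day 4 lay above the members of the other 6 libraries, so the groups overlapped. The log2 fold change was 1.18 ± 0.14 (adjusted p = 1.09e-05). Spry1, an inhibitor of MAP kinase signalling, averaged 21.8 ± 8.60 CPM in members and 4.97 ± 4.49 in marker-free cells. The phosphatase genes Dusp2 and Dusp4 and the G protein regulator Rgs16 were also higher, with log2 fold changes of 1.08, 2.16 and 2.05. Without the day 4 libraries Spry1 stood at 2.88, Dusp4 at 3.07 and Rgs16 at 2.97. The 2 genes in the other direction were Dusp10 (−0.39) and Socs3, an inhibitor of cytokine receptor signalling (−0.90), both lower in 8 of 8 libraries.

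Surface molecules of activated T cells followed the same direction. Of 18 genes, 16 were higher and 1 was lower (median 0.80), with the same counts without day 4. Cd200, whose protein signals inhibition to cells that bind it, was at 52.9, 28.2, 97.1, 77.3, 34.1, 141, 90.8 and 101 CPM in members and 5.24, 5.00, 14.4, 10.8, 11.4, 21.3, 10.8 and 60.4 in marker-free cells. Each library was higher in members, and the groups overlapped only through the marker-free cells of PPCA day 4. The log2 fold change was 2.31 ± 0.21 (adjusted p = 8.91e-07). Tnfrsf4, which encodes the costimulatory receptor OX40, averaged 93.6 ± 36.0 against 23.8 ± 14.4 CPM, and Il2ra, the α chain of the IL-2 receptor, 17.5 ± 5.44 against 5.01 ± 2.18. Cd5, whose level follows the strength of receptor signals, averaged 354 ± 89.1 against 197 ± 22.4 CPM. Cd69, which holds cells in tissue, averaged 882 ± 370 against 566 ± 366 CPM. These 4 genes were higher in 8 of 8 libraries and passed the test, while Ly6a was lower (−0.31).

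**Figure D3:**
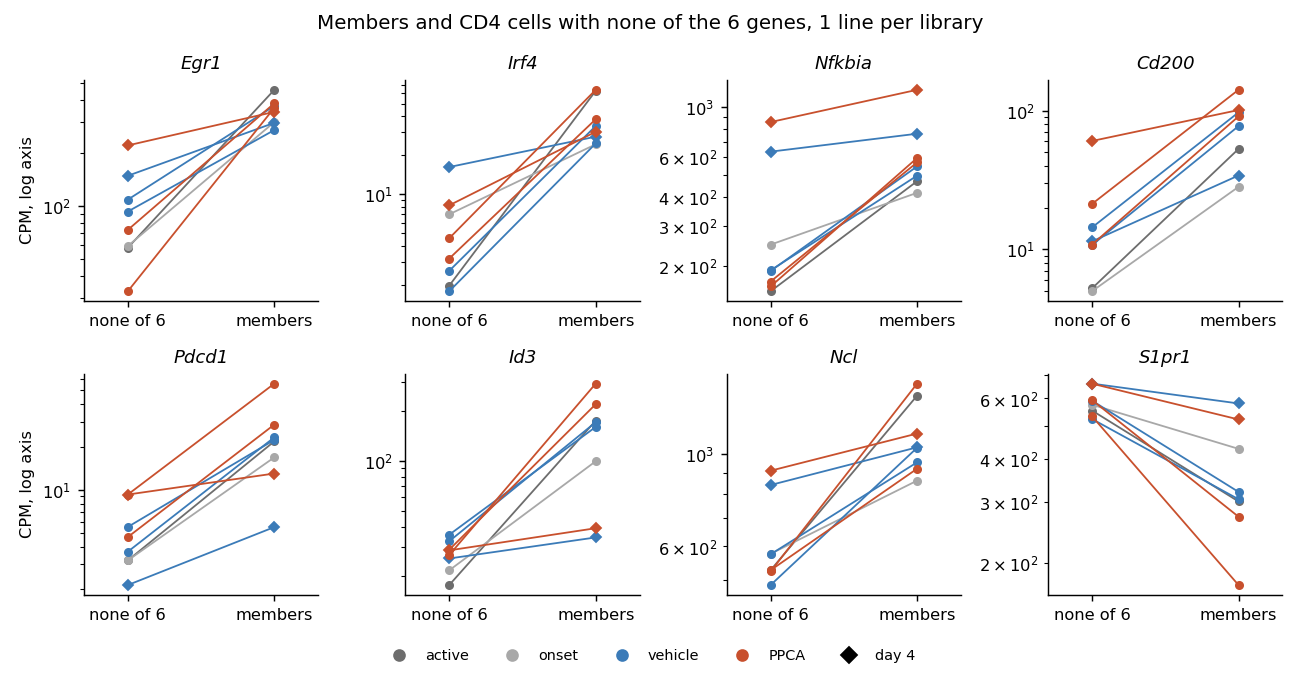
TMM-scaled CPM (y axes, log scale) of 8 named genes in marker-free cells and members, 1 line per library and coloured by group, with day 4 as diamonds. All lines rise for the first 7 genes and fall for S1pr1, and the day 4 lines are flatter for most of them.

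Cytokine RNA was higher in members but came from few cells. Of 21 cytokine and chemokine genes, 13 were measured well enough to be tested, of which 9 were higher and 1 was lower (median 1.18). Without day 4 the counts were the same, of 12 tested. Il2, the growth factor that T cells make after triggering, was at 2.27, 7.97, 9.42, 16.3, 4.32, 18, 4.54 and 15.1 CPM in members and at 0.792 to 3.64 CPM in marker-free cells. Its log2 fold change was 2.68 ± 0.26 (adjusted p = 1.34e-06), but only 45 of the members had any Il2 UMI, and 1 cell gave 19 of the 24 UMIs of the onset library and another 12 of the 13 of vehicle day 2. Tnf was carried more widely, by 507 members, and averaged 58.3 ± 18.8 against 24.5 ± 6.65 CPM (log2 fold change 1.18 ± 0.16).

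The chemokine gene Ccl4 had the least even spread. Its levels in members were 119, 96.6, 5.79, 3.05, 12.6, 76.5, 1.51 and 241 CPM, and a single cell gave 142 of 158 UMIs in the active library, 201 of 291 in the onset library, 85 of 85 in PPCA day 2 and 381 of 574 in PPCA day 4. The part of single cells in its call (log2 fold change 3.15 ± 0.29) was not tested.

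Shares of cells at equal depth gave the same direction for Tnf. With every cell thinned to 2000 UMIs, 71 of 561 members (12.7%, exact 95% interval 10.0% to 15.7%) and 620 of 13931 marker-free cells (4.45%, 4.11% to 4.81%) had a Tnf UMI. For Lta the shares were 7.31% and 2.80%, for Ifng 4.10% and 1.78%, and for Il21 2.14% and 0.488%. The Ifng share rested on 23 members from 5 libraries and the Il21 share on 12 members from 4. Summed per library after thinning, Ifng was not called by edgeR's quasi-likelihood test (log2 fold change 0.58, adjusted p = 0.333). For Il2 the shares were 0.713% (0.195% to 1.82%) and 0.366% (0.273% to 0.481%), and these intervals overlapped. None of the 561 members had a UMI of Il17a, Il13 or Il3 after thinning, which allows a share of cells with a UMI at this depth of up to 0.655% in each case and sets no limit on cells expressing the gene. On raw UMIs, 2 of the 2701 members had a UMI of Il17a and 1 of Il13. Members of all libraries were pooled for these shares, so they describe the cells and not the spread between libraries.

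Genes of checkpoints and anergy, the unresponsive state that follows signalling without costimulation, rose in part. Of 16 tested, 10 were higher and 1, Dgka, was lower (median 0.51; 11 and 1 without day 4). Pdcd1, which encodes PD-1, was at 21.9, 16.9, 22.5, 23.4, 5.49, 55.8, 28.8 and 13.0 CPM in members and 3.2, 3.2, 5.50, 3.68, 2.15, 9.28, 4.67 and 9.28 in marker-free cells. All libraries were higher in members, and the groups overlapped only through the members of vehicle day 4 (log2 fold change 2.14 ± 0.21, adjusted p = 1.34e-06). Cd274, which encodes its ligand PD-L1, averaged 39.8 ± 14.7 against 16.8 ± 1.81 CPM, and Izumo1r, which encodes folate receptor 4 and marks anergic and regulatory CD4 cells, 112 ± 33.0 against 61.1 ± 16.1. Lag3 was higher in 7 of 8 libraries (log2 fold change 1.48 ± 0.29, and 2.31 without the day 4 libraries).

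Genes of naive and recirculating T cells fell as a group. Of 16 genes, 13 were lower and none was higher (median −0.38; 14 lower without day 4). S1pr1, the receptor through which T cells leave tissue, was at 302, 429, 322, 306, 580, 173, 272 and 522 CPM in members and 554, 575, 591, 523, 663, 533, 594 and 662 in marker-free cells. All libraries were lower in members, and only the members of vehicle day 4 reached the range of the marker-free cells (log2 fold change −0.74 ± 0.10, adjusted p = 6.03e-05). Its transcriptional activator Klf2 fell by 0.59 on the log2 scale, Lef1 by 0.43 and the IL-7 receptor gene Il7r by 0.58, each in 8 of 8 libraries. The lymph node homing receptor gene Ccr7 fell by 0.34 but was higher in members in both day 4 libraries (443 against 406 and 412 against 359 CPM).

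Genes of growth were higher in members, and genes of division in part. All 16 genes of ribosome building and MYC targets were higher (median 0.76), with and without day 4. Of 15 genes of glycolysis and nutrient uptake, 9 were higher and 1 was lower (median 0.31), and without day 4 these were 10 and 1 of 16. Ncl, which encodes nucleolin, was at 1376, 862, 1033, 953, 1035, 1470, 920 and 1117 CPM in members and 527, 576, 485, 575, 841, 523, 527 and 910 in marker-free cells. It was higher in all 8 libraries (log2 fold change 0.83 ± 0.10, adjusted p = 1.80e-05). Odc1, of polyamine synthesis, averaged 121 ± 65.0 against 65.6 ± 68.1 CPM, and the chaperonin gene Hspd1 318 ± 148 against 158 ± 48.2, one of 7 higher among 11 heat shock genes (8 without day 4). Of 12 cell cycle genes, 5 were higher and none was lower (median 0.34). The count was 9 without the day 4 libraries (median 0.49) and 3 without vehicle day 2. Mki67, a marker of dividing cells, rested on few cells: in the active library 1 member gave all 19 UMIs, and without vehicle day 2 its log2 fold change went from 1.83 to 1.28 (adjusted p = 0.0913).

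Survival genes of the BCL2 family that NF-κB switches on were among the changes. Bcl2a1b averaged 165 ± 53.9 CPM in members and 38.7 ± 19.4 in marker-free cells (log2 fold change 2.07 ± 0.16, adjusted p = 1.84e-07), and reads of this gene can be shared with its near-identical copies. Bcl2l1, which encodes BCL-XL, averaged 15.2 ± 7.48 against 6.15 ± 1.04 CPM, and Gadd45b, which is on the list but not of this family, 109 ± 41.4 against 30.7 ± 26.6. Of the 18 genes of this list, 9 were higher and 1 was lower (median 0.31), and 11 and 1 without day 4. The lower gene was Bcl2 itself (−0.21), and its call was lost without the active, vehicle day 2, PPCA day 2 or PPCA day 3 library. Targets of p53, the pathway PPCA acts on, showed no common direction: 3 of 16 were higher and 2 lower (median 0.01), and 4 and 2 of 15 without day 4. Without PPCA day 4 alone 5 were higher, and 1 was lower when the active library or any of the 4 vehicle and PPCA libraries of days 2 and 3 was left out. Interferon response genes fell in part, with 6 of 12 lower and none higher (median −0.29; 6 lower and 1 higher of 14 without day 4), among them Usp18 at 6.75 ± 3.64 against 13.5 ± 9.18 CPM.

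By size of change, the 10 highest genes that shared their direction in 8 of 8 libraries included, besides those named, Marcksl1 (2.76), Hivep3 (2.42), Myb (2.30) and Id3 (2.23). Id3 encodes an inhibitor of E proteins induced by receptor signals. It was at 175, 99.3, 160, 171, 34.4, 292, 220 and 39.1 CPM in members and 17.7, 21.8, 35.7, 32.6, 25.7, 27.0, 29.0 and 28.8 in marker-free cells, so the groups overlapped only through the members of vehicle day 4. Hivep3, a zinc finger gene, averaged 102 ± 49.4 against 17.4 ± 2.05 CPM. Among the 10 lowest were Txnip (−0.75), which encodes a brake on glucose uptake, Tsc22d3 (−0.72), a glucocorticoid target, Arl4c (−0.71) and Pik3ip1 (−0.65), which encodes a negative regulator of PI3 kinase. In the authors' deposited table of marker genes, the cluster named CD4 Th0 lists Egr3 with a log2 fold change of 1.27 over the other cells, Nr4a1 with 1.19 and Nfkbid with 1.06. Of the 172 tested genes that the authors' deposited table lists for this cluster, 162 (94.2%) were higher in the members, and these made up 14.4% of all genes higher. The cluster named CD4 Treg lists Tnfrsf9 (0.655) and also Nr4a1 (0.355). Of its 561 tested genes 167 (29.8%) were higher in the members and 83 (14.8%) lower, and of 426 listed for CD4 Th17 128 (30.0%) were higher and 70 (16.4%) lower. Over all genes tested, 11% were higher and 7.91% lower. Lists of CD8 clusters, which the gate leaves out, also lay above these shares. Of 671 genes of CD8 TRM TEM 129 (19.2%) were higher and 114 (17.0%) lower, and of 81 of CD8 TCM 12 (14.8%) and 23 (28.4%). The authors' deposited table was made from these libraries and is not independent of them.

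Lists of T helper fates gave mixed results. Of 11 type 1 helper genes, 2 were higher and 1 was lower (median 0.10), while 2 were lower without vehicle day 2 or PPCA day 4, and 3 were higher and 2 lower without both day 4 libraries. Of 10 follicular helper genes, 5 were higher and 1 was lower (median 0.20), and without day 4 the same counts came from 11 tested. Bcl6, the master factor of follicular helper cells, averaged 13.1 ± 6.58 against 6.94 ± 1.39 CPM (log2 fold change 0.80 ± 0.19, higher in 7 of 8 libraries). Of 7 regulatory T cell genes, 4 were higher and none was lower (median 0.76; 5 higher without day 4). Ikzf2, which encodes Helios, was at 70.3, 32.5, 41.3, 86.5, 28.9, 89.0, 86.3 and 73.6 CPM in members and 13.2, 13.5, 21.3, 30.7, 19.5, 41.8, 26.9 and 44.6 in marker-free cells. It was higher in 8 of 8 libraries (log2 fold change 1.23 ± 0.14, adjusted p = 9.11e-06). In CD4 cells with a Foxp3 UMI, which the rule leaves out, Ikzf2 averaged 687 ± 154 CPM without TMM scaling, beside 64.7 ± 26.7 in members and 26.1 ± 12.2 in marker-free cells, and Il2ra averaged 187 ± 53, 17.8 ± 5.68 and 4.97 ± 2.42. A regulatory cell whose Foxp3 RNA was not captured passes the rule, and the part of such cells was not tested.

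Markers of other cell types were summed per library in both groups. Summed over 10 B cell markers, levels were 111 to 254 CPM in members and 104 to 223 in marker-free cells, with none at 0 in members. With all libraries pooled, the defining gene Cd79a was at 2.15 CPM in members and 1.19 in marker-free cells. Day 4 held 54.5% of the members but 3504 of the 18474 marker-free cells, so pooled values also reflect the mix of libraries. Summed per library over 12 myeloid markers, levels were 111 to 143 and 121 to 168 CPM, with 2 at 0 in members. Lyz2, pooled in the same way as Cd79a, was at 0.930 and 5.26 CPM. Over 15 pancreas markers the sums per library were 1.59 to 112 and 7.92 to 362 CPM, with 6 at 0 in members, among them Ins1 and Ins2. Over 10 NK and innate lymphocyte markers they were 77.9 to 136 and 76.1 to 107 CPM, with 1 at 0 in members. Over 6 CD8 lineage markers outside the gate they were 38.5 to 450 and 78.0 to 465 CPM, with none at 0 in members and PPCA day 4 highest in both groups. Over 8 stromal and endothelial markers they were 59.1 to 99.5 and 72.5 to 119 CPM, with 3 at 0 in members. Ighm of the B cell list had a UMI in 46.2% of members and Cst3 of the myeloid list in 48.6%. Gata3 of the innate list was seen in 29.5% and Pecam1 of the endothelial list in 35.8%. These sums thus hold RNA seen in many of the members and do not count cells of other types. The part of cells of other types in the results was not tested. All 8 tested pancreas markers were called lower in members, such as the lipase gene Pnlip at 1.55 ± 2.00 against 9.19 ± 6.74 CPM (log2 fold change −1.93, and −3.35 without the day 4 libraries). In PPCA day 4 the direction differed, with a median log2 ratio of 0.18 for the tested pancreas markers. The 15 summed pancreas markers were there at 112 CPM in members and 80.5 in marker-free cells. Only 3 of the 8 were still called when PPCA day 3 was left out, and 5 when vehicle day 2 or vehicle day 3 was. Cd74, of antigen-presenting cells, was higher (log2 fold change 2.31 ± 0.43), but in vehicle day 2 a single cell gave 66 of its 75 UMIs, and without that library the value was 1.70. Members with over 2.5 times the median UMIs of their library numbered 139, and 8 had more than 1 UMI of B or myeloid genes. Without these cells 847 genes were higher and 576 lower.

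Levels followed the number of the 6 genes seen in a cell, from 0 to 4 or more. As mean CPM over libraries, without TMM scaling, Egr1 was at 95.5, 129, 244, 389 and 734 with 0, 1, 2, 3 and 4 or more of the genes. Irf4 was at 5.44, 8.92, 20.7, 43.9 and 114 CPM, and Cd200 at 17.0, 23.8, 57.0, 94.6 and 162. S1pr1 went the other way, from 578 through 539, 406 and 308 to 208 CPM. At the edge of the rule, members with 2 genes of 1 UMI each had Egr1 at 163 and Irf4 at 14.6 CPM, and cells with 1 gene, which just missed it, had 129 and 8.92. The members with Egr2 or Egr3 (1162 cells) had Egr1 at 539 ± 127 CPM (SD, n = 8) and the members without either (1539 cells) at 155 ± 67.6, while their median UMIs were close, at 5561.5 and 5517. For the ribosome building list the medians over marker-free cells were 0.79 and 0.87 in these 2 kinds of member, with 3 of 16 genes higher in those with Egr2 or Egr3, whereas 20 of 22 early transcription factors were higher in them.

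The contrast between members and marker-free cells was smaller on day 4 for many gene lists, but not for all. The cytokine and chemokine, cell cycle, p53 and interferon lists were among those that did not follow. The median log2 ratio of the early transcription factor list was 0.38 and 0.42 in vehicle and PPCA day 4 and 0.70 to 1.21 in the other 6 libraries. For ribosome building it was 0.17 and 0.18 against 0.52 to 1.24, for the signal brakes 0.22 and 0.33 against 0.43 to 0.93, and for the naive and exit genes −0.11 and −0.16 against −0.25 to −0.73. The marker-free cells of both day 4 libraries were the highest of their group for Nfkbia, Egr1 and Ncl. Over the 6 libraries of vehicle and PPCA, edgeR's quasi-likelihood test found that the contrast between states differed between day 4 and days 2 and 3 for 114 genes upward (1.02% of 11198) and 246 downward (2.2%). After thinning, 26 genes were called in place of these 360. Day 4 was compared in this way after its shares had been seen.

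**Figure D4:**
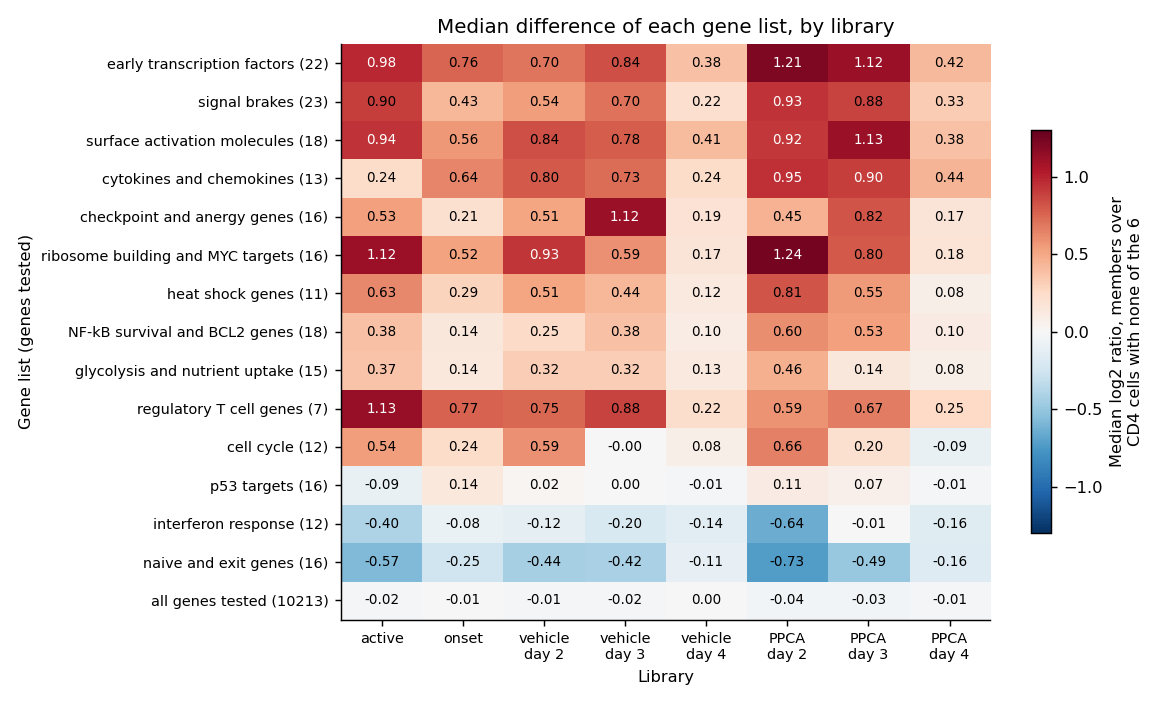
Median log2 ratio of members over marker-free cells (colour and printed value) for each gene list (y axis, number of genes tested in brackets) in each library (x axis). The day 4 columns are paler than the others except for cytokines and chemokines, cell cycle, p53 targets and interferon response. The row of all genes tested lies between −0.04 and 0.00.

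Within the members, few genes differed between PPCA and vehicle. The test used 3 libraries of each arm with the harvest day as a block, which leaves 2 residual degrees of freedom. By edgeR's quasi-likelihood test 7 of 7673 genes were higher with PPCA (0.0912%) and 2 were lower (0.0261%), and without the block 0 were called (170 at an unadjusted p under 0.05). Leaving out day 2, 3 or 4 gave 28, 16 and 87 calls. Sex-linked transcripts differed between the arms on days 2 and 4, in opposite directions, and their part in the result was not tested beyond a fit with Xist as a further factor, which called 106 genes.

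Tbc1d4, which encodes a Rab GTPase-activating protein that holds glucose transporters inside the cell, was seen in 599 members. With all 8 libraries pooled, at most 1.73% of its UMIs lay in 1 cell. Within single libraries 1 cell gave up to 18.0%, with 24 of 133 UMIs in PPCA day 3 and 24 of 134 in vehicle day 2. Tbc1d4 was at 99.4, 117 and 80.9 CPM in the vehicle members of days 2, 3 and 4 and at 186, 206 and 178 with PPCA. The arms did not overlap (log2 fold change 0.97 ± 0.14, adjusted p = 0.0157), but the call was lost without day 3 (adjusted p = 0.0728), after thinning (0.81, adjusted p = 0.998) and with at least 3 of the 6 genes (0.23, adjusted p = 0.999). In marker-free cells the vehicle values were 55.9, 46.9 and 58.7 CPM and the PPCA values 72.5, 44.9 and 133. Eea1, of early endosomes, was at 38.6, 57.2 and 23.6 CPM with vehicle and 105, 118 and 79.0 with PPCA (log2 fold change 1.44 ± 0.19, adjusted p = 0.00938), and with at least 3 of the 6 genes the value was 0.85 (adjusted p = 0.465). In PPCA day 3, Eea1 was seen in 11 of 104 members, and 1 cell gave 29 of its 76 UMIs. Tbc1d4 and Eea1 fall outside the rule for named genes and were chosen after their values were seen.

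The other 5 higher genes were each seen in fewer members than Tbc1d4 and Eea1. Ccl4 was at 5.93, 3.12 and 12.7 CPM with vehicle and 78.2, 1.55 and 248 with PPCA, so it was higher on 2 of 3 days (log2 fold change 3.98 ± 0.37, adjusted p = 0.00110), and on day 2 all of its 85 UMIs with PPCA lay in 1 cell. DESeq2 did not call it. Il21, a cytokine of helper cells, was at 3.71, 6.24 and 6.03 CPM with vehicle and 13.8, 27.9 and 47.5 with PPCA (log2 fold change 2.63 ± 0.31, adjusted p = 0.00681), but on day 3 its 18 UMIs with PPCA lay in 1 cell, and without day 4 the log2 fold change was 2.01. The 37 Nrgn UMIs of PPCA day 3 also lay in 1 cell. Neb was seen in 3 and 11 members of vehicle and PPCA day 2 and in 21 and 61 of day 4. With at least 3 of the 6 genes, Nrgn (1.32, adjusted p = 0.999) and Neb (adjusted p = 0.403) lost their calls. Socs2, an inhibitor of cytokine signalling, was higher on all 3 days (2.23, 2.08 and 3.69 against 21.2, 9.28 and 21.6 CPM), with an adjusted p of 0.0116 by edgeR and 0.0687 by DESeq2.

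The 2 lower genes encode ribosomal proteins. Rps15 was at 2040, 3824 and 2465 CPM with vehicle and 1320, 2250 and 1279 with PPCA in the members (log2 fold change −0.78 ± 0.11, adjusted p = 0.0157). In marker-free cells it was at 2138, 3551 and 2101 CPM with vehicle and 1282, 2153 and 1130 with PPCA. Rpl13a had a similar difference (−0.78 ± 0.12, adjusted p = 0.0376, and 0.0797 without day 3). Of the 19 early transcription factors tested in this comparison 0 were called (median 0.12), of 12 p53 targets 0 (median 0.14) and of 18 surface molecules 0 (median 0.34), beside a median of 0.01 over all genes. Whether PPCA changed the contrast between members and marker-free cells was tested as an interaction: edgeR called 0 of 10845 genes (259 at an unadjusted p under 0.05) and DESeq2 called 0 (68 unadjusted). Without day 4, 6 genes were called by edgeR.

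**Figure D5:**
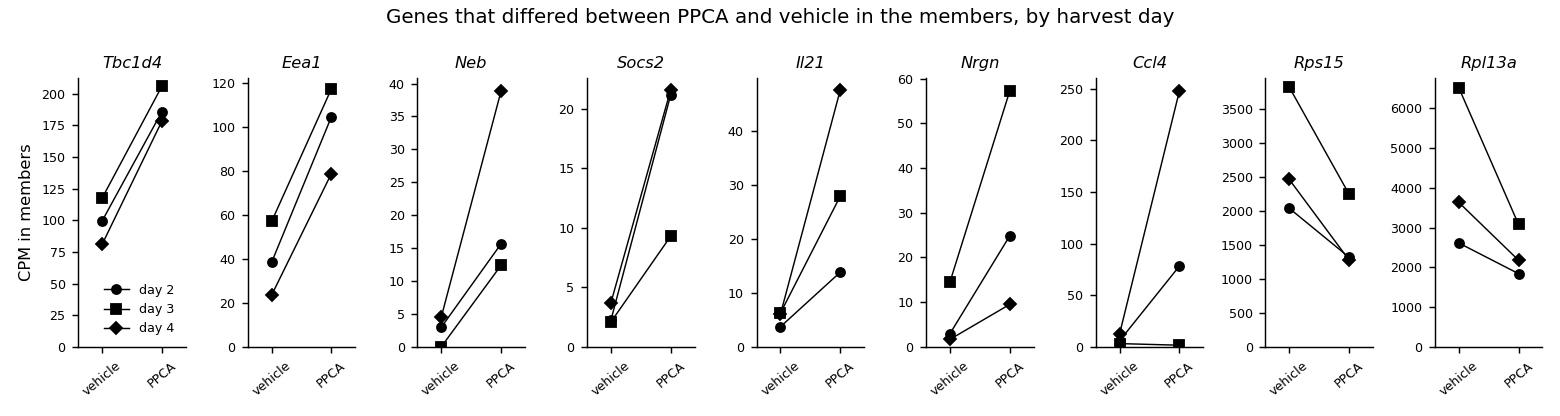
CPM in members (y axes, linear from 0) of the 9 genes that passed the test between PPCA and vehicle, 1 line per harvest day joining the libraries of that day. Lines of days 2, 3 and 4 rise for 6 genes and fall for Rps15 and Rpl13a, and the line of day 3 falls for Ccl4.

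The active and onset libraries have 1 sample each, so their values carry no replicate check. Among members, 27 of 2962 genes with enough counts were at least 2-fold higher in the active library (0.912%) and 4 were lower (0.135%), with at least 50 CPM in the higher of the pair. The interferon gene Isg15 was at 138 CPM (exact 95% Poisson interval 119 to 161) in active and 36.5 CPM (30.0 to 44.0) in onset members, and at 113 and 34.7 in marker-free cells. Irf4 was at 66.0 and 24.2 CPM in members but at 1.94 and 6.81 in marker-free cells. The calcium-binding protein gene S100a6 was at 161 and 54.1 CPM in members and at 30.5 and 67.3 in marker-free cells, so the direction differed between states. Lower in the active library were the chemokine gene Ccl5 (31.0 against 264 CPM) and Fos (158 against 436), and marker-free cells had Fos at 148 and 444 CPM.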

How the data were processed

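Sorted T cells of 8 libraries were measured by single-cell 3′ sequencing. The deposited values are raw UMI counts per gene (32285 features) and barcode, made by the authors with Cell Ranger, version 6.1.2 per the submitters' processing notes and 6.0.0 per the file headers. For the genome build, the sources used here give no name. The authors' deposited table of cluster markers holds log2 fold changes of named clusters over the other cells, with Seurat named in the submitters' processing notes.

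Cells were chosen by the rule stated at the opening. The members, the gene lists and the tests were chosen with earlier results of these data known. No doublet caller was run: members above 2.5 times their library's median UMIs or with more than 1 UMI of B or myeloid genes were left out as an alternative.

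UMIs were summed per library in members and in marker-free cells. Sums were tested with edgeR 4.0.16 (TMM scaling, its default filter on low counts, quasi-likelihood test, Benjamini-Hochberg adjustment over all genes tested, threshold 0.05) in R 4.3.3, with the library as a block between states and the day as a block between PPCA and vehicle. Same-day libraries deviated together (correlations of 0.282, 0.172 and 0.512 on days 2, 3 and 4), so the day was kept as the pairing. DESeq2 1.42.0 was an alternative. Shares were compared over libraries with exact tests (scipy 1.17.1) after thinning to 2000 UMIs. The tests were checked on simulated data.

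Genes were named from the lists in any comparison, and by size. The size rule took the 10 highest and 10 lowest changes with 1 direction in all 8 libraries and at least 20 CPM, and in the other comparisons the 5 highest and 5 lowest called. T cell receptor, mitochondrial, sex-linked and predicted genes were not named by size. Alternatives were depth, filter, scaling, block, stricter or narrower rules and each library left out. Those without day 4, the comparison of day 4 and the CD8 shares under other rules were added after the data were seen. One gene of the lists is not reported here.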

Additional observations from a re-analysis of the deposited data

Results flagged for a closer look

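The contrast between members and marker-free cells differed between day 4 and days 2 and 3 for 360 genes, by the test of that difference over the 6 vehicle and PPCA libraries (edgeR, adjusted p under 0.05). This comparison was chosen after the day 4 libraries had been seen to stand apart, and the day holds 2 libraries. Of the 21 genes named here, 5 (Egr1, Rel, Nfkbia, Gadd45b and Ccr7) kept their call after thinning to 2000 UMIs, 14 lost it and 2 turned in sign. By DESeq2 13 kept it and 2 lost it, and for the rest DESeq2 returned no adjusted p-value, so they were not checked there. With the rule on a separate part of the UMIs 18 kept it and 3 lost it. Values are the log2 contrast on day 4 minus that on days 2 and 3.

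Among transcription factors the contrast was smaller on day 4 for Egr1 (−1.40), Irf4 (−2.53) and Rel (−1.13). DESeq2 did not call Egr1 (adjusted p = 0.217) or Socs3 (0.167). Among signal brakes it was smaller for Dusp4 (−2.62), Rgs16 (−2.41), Spry1 (−1.90) and Nfkbia (−1.24), and Socs3, which was lower in members, differed by 1.48. Of the surface and checkpoint genes, Tnfrsf4 differed by −1.46, Cd200 by −1.72, Pdcd1 by −1.59 and Lag3 by −2.29. Pdcd1 lost its call after thinning (adjusted p = 0.811), on separate parts of the UMIs (0.212) and without Nr4a1 in the rule (−0.98, adjusted p = 0.232). After thinning Lag3 stood at −0.61 (adjusted p = 0.938), Cd200 at −0.97 and Spry1 at −0.91, and Bcl2a1b, named next, at −0.80. The survival genes Bcl2a1b and Gadd45b differed by −1.39 and −1.77. Growth genes differed less in Ncl (−0.71) and more in Srm (−1.19) and Odc1 (−1.61). The genes lower in members were less so on day 4: Ccr7 by 0.77, Klf2 by 0.58, S1pr1 by 0.84 and the pancreas gene Pnlip by 3.07. The Pnlip value was 1.43 on separate parts of the UMIs (adjusted p = 0.727).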

How the results depend on the processing

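The difference in thinned share between PPCA and vehicle (0.131 percentage points) turned to −2.19 on raw UMIs and to −0.122 at 3000 UMIs, and ranged from −0.0986 (without day 3) to 0.299 when 1 day was left out. Of 1125 genes higher and 808 lower in members, 220 and 212 were called after thinning to 2000 UMIs, 640 and 372 with the rule and the sums on separate parts of the UMIs, 299 and 67 in the 4 libraries with Xist, and 589 and 323 in the 4 with Y-linked transcripts. Without a low-count filter 1265 were lower. On separate parts of the UMIs and without day 4, 526 were lower. Leaving out 1 library gave 538 (without active) to 911 lower genes. DESeq2 called 1032 and 681. Of the named genes' values under these alternatives, 1655 kept direction and call, 127 lost the call and 0 turned. In the 4 libraries with Xist 25 of the 87 named genes lost their call, and in the 4 with Y-linked transcripts 12 did. Of those described above, Jun, Ccr7, Bcl6 and Bcl2 lost it in both sets. Socs3, Dusp10, Ly6a, Il21, Ifng, Dgka, Il7r, Bcl2l1, Mki67, Cd74 and Tsc22d3 lost it only with Xist, and Usp18 only with Y-linked transcripts. Fewer libraries or UMIs were tested in the thinned, split and library subsets, and for the other moves the cause was not tested.

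Without the replicate block 489 genes were higher and 163 lower in members and 35 of 87 named genes lost their call, and between PPCA and vehicle 0 genes were called in place of the 9 called with the day as the pairing. That count of 9 became 93 without the filter, 4 after thinning, 5 with at least 3 of the 6 genes, 106 with Xist as a further factor, and 16 to 87 when 1 day was left out. The 0 interaction calls became 14 without the filter, 1 after thinning and 0 to 6 when 1 day was left out. The 360 genes of the day 4 comparison became 169 by DESeq2, 26 after thinning and 155 on separate parts of the UMIs, and after thinning Irf4 turned to 1.20 and Pnlip to −0.84. The 31 genes of active against onset became 711 after thinning, which leaves few UMIs per gene. With 104 to 993 members per library, genes of a few UMIs are limited by single cells.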

Other observations

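Levels of members with and without Egr2 or Egr3 are given here as mean CPM ± SD over 8 libraries with no test, since these genes are part of the rule. Tnf was at 81.8 ± 37.6 CPM in the members with Egr2 or Egr3 and at 34.6 ± 10.4 in those without, and Pdcd1 was at 32.1 ± 21.6 and 16.1 ± 11.4. Tnfrsf4 was at 95 ± 47.3 and 98.2 ± 39.0 CPM and Ncl at 1074 ± 258 and 1205 ± 417, each difference smaller than the SD. None of 12 cell cycle genes was higher in the members with Egr2 or Egr3.

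With the number of the 6 genes, from 0 to 4 or more, Tnf went from 24.2 through 29.6, 36.1 and 67.7 to 128 CPM, so most of its difference lay in members with 3 genes or more. Id3 changed earlier, from 27.0 through 49.2, 107 and 200 to 272 CPM. Of the 53 tested genes that the authors' deposited table lists for its CD4 Naive cluster, 40 (75.5%) were lower in members, and of 81 listed for CD4 Th1, 39 (48.1%) were lower and 2 higher. Over all genes tested, 7.91% were lower and 11% higher.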
